A study of Mus musculus with 8 samples.

Results

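The complexin family of the mouse, Cplx1, Cplx2, Cplx3 and Cplx4, was followed in RNA-sequencing counts of the ventral tegmental area (VTA), the midbrain region that holds the dopamine neurons projecting to the nucleus accumbens and prefrontal cortex. The members were taken by gene symbol and are all 4 complexin genes among the 54735 genes of the count table. Cplx1 and Cplx2 were known beforehand to be lower in stressed mice, so the family was chosen by their SS against CTR values in these same libraries, and their difference between the groups is given as a description, with no test read from it. The 8 libraries came from mice of the DBA2/J inbred strain, labelled as males, and each held RNA from 0.5 mm punches of the left and right VTA of 1 mouse. The 4 unhandled control mice (CTR) stayed undisturbed with their mothers. The 4 social stress mice (SS) were each put in the cage of an adult male of the CD1 strain for 30 min per day from postnatal day (PD) 14 to 21, and brains were taken at PD22 by the study's methods and at P21 by the labels. The methods allow littermates within a group, and litters are not given for the libraries. The series' design text counts 5 mice per group, and 4 per group were analysed here.

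Complexins are small soluble proteins that bind the assembled SNARE complex, the bundle of syntaxin, SNAP-25 and synaptobrevin that pulls a synaptic vesicle onto the presynaptic membrane. They hold the primed vesicle ready and help the calcium sensor synaptotagmin to trigger fusion, and in several systems they also restrain release without a stimulus. Cplx1 and Cplx2 are the complexins of most central synapses, whereas Cplx3 and Cplx4 carry a lipid anchor and are best known from the ribbon synapses of the retina. In dopamine neurons the same machinery releases dopamine from axon terminals.

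Cplx1 and Cplx2 resemble each other in their coding sequence, which bears on whether reads can be told apart. Their coding sequences were 402 bases each without the stop codon and 80.0% identical (GENCODE M21, GRCm38), and 113 of 134 translated positions matched. Cplx3 and Cplx4 had coding sequences of 474 and 480 bases with 63.6% identity to each other, and between 48.9% and 53.6% to Cplx1 and Cplx2. A stretch near the start of the coding sequence, bases 7 to 81, is printed to show how closely the Cplx1 and Cplx2 transcripts resemble each other. It is 75 bases long, the length of one read, runs across an exon junction in both genes and is written 5′ to 3′ on the transcript strand, with capitals at the 7 positions that differ.
Cplx1, chr5:108525518-108548530, minus strand: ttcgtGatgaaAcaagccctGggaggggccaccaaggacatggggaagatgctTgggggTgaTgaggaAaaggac
Cplx2, chr13:54378675-54378861, plus strand: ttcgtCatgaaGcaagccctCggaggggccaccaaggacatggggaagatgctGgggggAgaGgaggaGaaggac
The 7 differences fell toward both ends of the stretch, with an identical run between them. Over the full transcript, 0 of 2115 words of 75 bases in Cplx1 occurred in any other gene among 141767 transcripts searched, and none of Cplx3 or Cplx4 did. Of 4854 such words in Cplx2, 124 occurred in other genes, none of them in another complexin. No annotated gene overlapped a complexin in GENCODE M21. The counts were made with an Ensembl annotation that was not used here, so overlaps in that annotation were not checked.

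Cplx1 lies at chr5:108518554-108550024 (minus strand), Cplx2 at chr13:54371349-54383917 (plus strand) and Cplx3 at chr9:57599992-57606281 (minus strand), all protein coding. RefSeq windows of 300 bases around the start sites (GRCm38.p6, 250 bases before and 50 after) were matched for Cplx1, Cplx2 and Cplx3. Those of Cplx1 and Cplx2 are printed because both transcripts were lower in SS, with the GC box GGGCGG on either strand in capitals.
Cplx1, chr5:108549978-108550277, minus strand: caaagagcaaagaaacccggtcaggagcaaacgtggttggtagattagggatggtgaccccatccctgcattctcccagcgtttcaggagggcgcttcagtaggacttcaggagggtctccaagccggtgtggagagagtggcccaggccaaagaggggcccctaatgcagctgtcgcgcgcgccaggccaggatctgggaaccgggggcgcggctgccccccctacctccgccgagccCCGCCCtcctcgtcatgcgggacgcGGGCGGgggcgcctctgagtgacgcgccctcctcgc
Cplx2, chr13:54302306-54302605, plus strand: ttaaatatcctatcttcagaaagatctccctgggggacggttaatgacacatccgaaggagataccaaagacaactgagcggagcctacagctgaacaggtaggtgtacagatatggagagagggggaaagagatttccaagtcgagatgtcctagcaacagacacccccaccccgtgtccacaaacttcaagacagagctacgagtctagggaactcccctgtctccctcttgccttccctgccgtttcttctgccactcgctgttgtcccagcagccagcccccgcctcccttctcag
The Cplx1 window was 67.0% G and C with 24 CpG sites and held 2 GC boxes, a motif found in 35.7% of the 32851 windows in the table. The Cplx2 window was 53.3% G and C with 9 CpG sites and held no GC box, beside medians of 52.7% and 7 over all windows. It belongs to a RefSeq start 68.8 kb upstream of the GENCODE M21 start, so it bears only on transcripts from that distal start. Searched as letters on both strands, the TATA box (TATAAA, 13.6% of windows), the CRE core (TGACGTC, 3.2%), the E box (CACGTG, 7.2%), the NBRE core (AAGGTCA, 4.7%), a Pitx3-type site (TAATCC, 7.1%), an engrailed-type site (TAATTA, 5.3%) and the glucocorticoid receptor half-site (AGAACA, 19.0%) were in neither window. The Cplx3 window held the E box 2 times.

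Before the complexin values, the libraries themselves need a description. Totals ranged from 20036086 to 47319997 counts on genes. Sex-linked transcripts went against the label male in CTR-5 and SS-5: Xist, the RNA that coats the inactive X chromosome, had 14997 counts in CTR-5 and 6551 in SS-5 and at most 3 in the other 6 libraries, and the Y-linked genes Uty, Kdm5d, Eif2s3y and Ddx3y summed to 3 and 0 counts there and to 2293 to 7892 elsewhere. There was 1 such library in each group. CTR-1 and CTR-2 held fewer low genes than the rest: of 2760 genes with a mean of 0.5 to 2 CPM (a gene's counts scaled to the library's normalized size), the share at 0 was 36.4% in CTR-1 and 33.4% in CTR-2 and lay between 0.58% and 13.7% in the other 6. The fold changes were therefore also taken without CTR-5 and SS-5 and without CTR-1 and CTR-2, and the ratio and the values per neuronal count without CTR-5 and SS-5.

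Cplx1 (ENSMUSG00000033615.9), a cytosolic complexin of central synapses, was the most abundant member per length and was lower in every SS library. In CTR its level was 904 CPM in CTR-1, 803 in CTR-5, 761 in CTR-2 and 606 in CTR-3. In SS it was 348 CPM in SS-2 and 311 in SS-3, with SS-4 and SS-5 lowest at 302 and 300.4. The groups stood apart, with the lowest CTR library at 1.74 times the highest SS library. The group means were 769 ± 124 CPM in CTR and 316 ± 22.2 in SS (SD, n = 4 each), which is 41.1% of the CTR mean. The 4 SS libraries also lay closer together than the 4 CTR libraries, with a coefficient of variation of 7.03% compared with 16.1%. These values rested on 7800 to 31521 counts per library.

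Cplx2 (ENSMUSG00000025867.8), best known from excitatory neurons of the forebrain, was lower in every SS library as well. Its level in CTR was 724 CPM in CTR-5, 616 in CTR-2, 598 in CTR-1 and 465 in CTR-3. In SS it was 356 CPM in SS-2 and 347 in SS-3, with SS-4 and SS-5 again lowest at 321 and 282. The gap between the groups was narrower than for Cplx1, with CTR-3 at 1.31 times SS-2. The means were 601 ± 106 CPM in CTR and 327 ± 33.5 in SS (SD, n = 4 each), which is 54.4% of the CTR mean. CTR-3 was the lowest CTR library for both genes, and SS-5 the lowest SS library for both. The highest CTR library differed, CTR-1 for Cplx1 and CTR-5 for Cplx2.

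**Figure D1:**
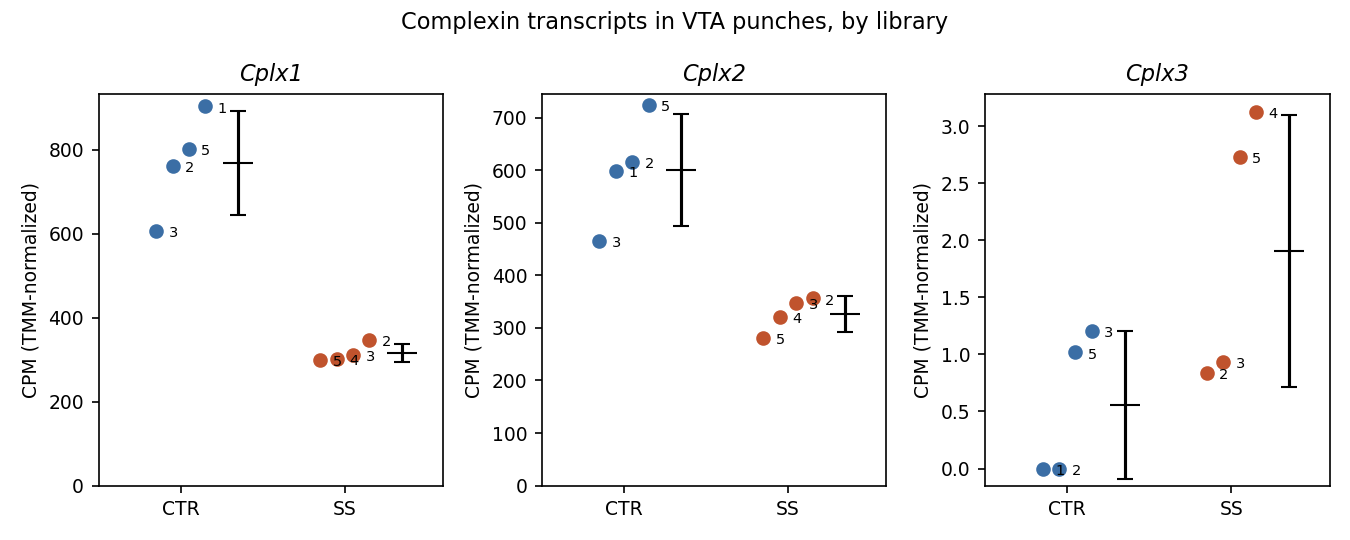
Level of Cplx1, Cplx2 and Cplx3 in each library, in TMM-normalized CPM on a separate linear axis per gene, with the replicate number beside each point and the group mean ± SD as a black bar (n = 4 per group). For Cplx1 and Cplx2 all 4 CTR libraries lie above all 4 SS libraries, whereas the Cplx3 points overlap and CTR-1 and CTR-2 are at 0.

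In the model fitted to all genes, the log2 fold change of SS relative to CTR was -1.28 for Cplx1 (SE 0.11) and -0.88 for Cplx2 (SE 0.13). Both were among the 14 of 16538 genes tested (0.0847%) that passed an adjusted p of 0.05 in edgeR's quasi-likelihood test with Benjamini-Hochberg adjustment, all 14 of them lower in SS, and were 4th and 11th by p value. Groups of CPM values that did not overlap, as for both genes, were found for 4.67% of genes tested. Since this contrast was known when the family was chosen, nothing is read from the number of members called. In bulk tissue, fewer cells that express a complexin and less complexin RNA per cell cannot be told apart.

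Cplx1 kept its side of the threshold under every alternative tried, and Cplx2 did not. The alternatives reuse the libraries by which the family was chosen. They describe how the calls depend on the processing and are no further support for either gene. Without CTR-5 and SS-5 the log2 fold change was -1.24 for Cplx1 and -0.71 for Cplx2, and without CTR-1 and CTR-2 it was -1.16 and -0.86. Both genes were lower in SS in all of these, but Cplx2 was past the threshold in neither and was lost in 5 of 8 fits that left out 1 library (without CTR-2, SS-2, SS-3, SS-4 or SS-5, at -0.92 to -0.81).

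**Figure D2:**
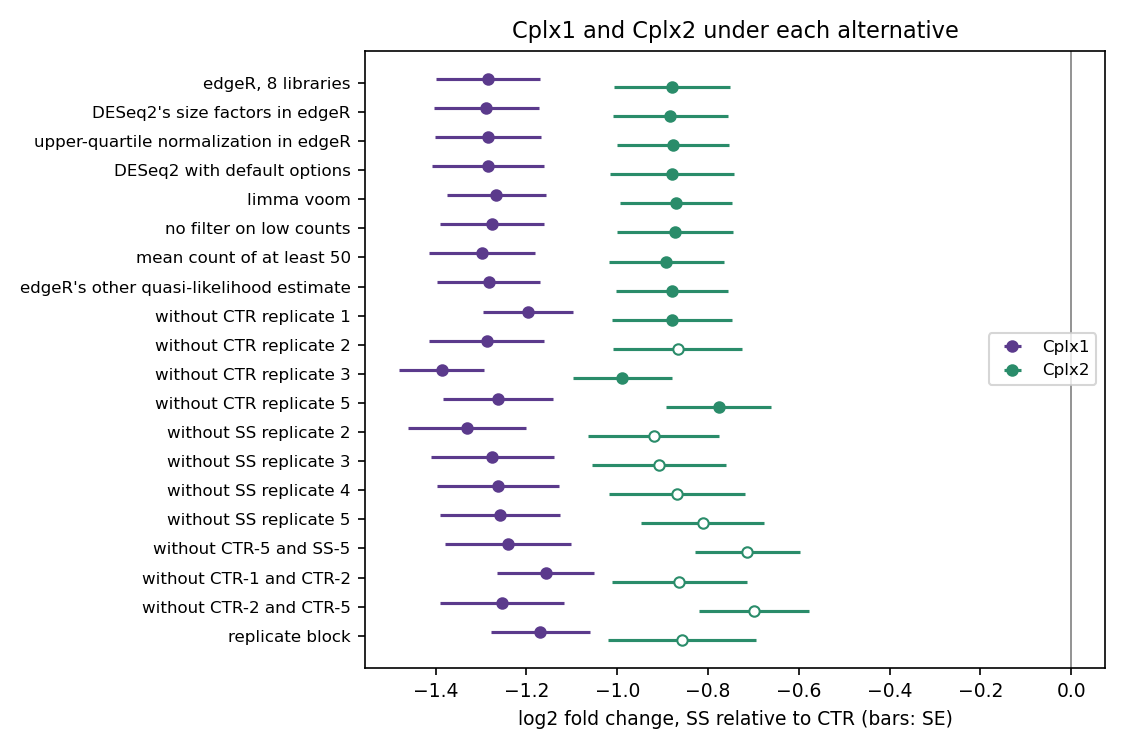
Log2 fold change of Cplx1 (purple) and Cplx2 (green), SS relative to CTR, in the fit of all 8 libraries and in each alternative, with bars for the SE. Filled points passed an adjusted p of 0.05 and open points did not, and every value is below 0, from -1.39 to -1.16 for Cplx1 and from -0.99 to -0.70 for Cplx2.

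Cplx3 (ENSMUSG00000039714.9), a lipid-anchored complexin, had low counts, at most 83 in a library. It had 40 counts in CTR-5, 28 in CTR-3 and none in CTR-1 or CTR-2, compared with 83 in SS-4, 71 in SS-5, 45 in SS-3 and 35 in SS-2. In CPM, in the same order, these were 1.02, 1.21, 0 and 0 for the CTR libraries and 3.13, 2.73, 0.934 and 0.837 for the SS libraries. The groups overlapped, since CTR-3 and CTR-5 lay above SS-2 and SS-3. The means were 0.557 ± 0.648 CPM in CTR and 1.91 ± 1.19 in SS (SD, n = 4 each), and Cplx3 did not pass the threshold in edgeR (log2 fold change 1.75, SE 1.28). The 2 CTR libraries at 0 were those that lacked the most low genes, and without them the log2 fold change was 0.77 (SE 0.71). In cortex, Cplx3 is a known marker of layer 6b and subplate neurons. The 4 markers of those neurons summed to 114 to 187 CPM in CTR and 129 to 170 CPM in SS, with Nxph4 and Tmem163 making up most of that sum, and Moxd1 was at 0 in CTR-1 and CTR-2, the same libraries as Cplx3. Their part in the Cplx3 values was not tested.

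Cplx4 (ENSMUSG00000024519.6, chr18:65955722-65970237, minus strand), a complexin of retinal ribbon synapses, had 0 counts in all 8 libraries. A count of 0 allows up to 3 counts, or 0.0622 to 0.155 CPM depending on the library, for counting error only. This floor does not cover the large share of low genes at 0 in CTR-1 and CTR-2. It did not enter the test, so 3 of the 4 members were tested.

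Per length of exon, which allows a comparison between genes, the order was Cplx1, Cplx2, Cplx3, Cplx4 in both groups. Lengths were those of GENCODE M21. The Ensembl annotation behind the counts was not checked and may differ, for Cplx2 in particular, whose distal RefSeq start is absent from GENCODE M21. Cplx1 reached 351 ± 56.4 CPM per kb in CTR and 144 ± 10.1 in SS (SD, n = 4 each), and Cplx2 reached 122 ± 21.5 and 66.3 ± 6.79. Cplx1 and Cplx2 did not overlap within either group on this scale. Among 16488 genes tested with a known length, Cplx1 was number 62 in CTR and number 196 in SS, and Cplx2 was number 290 and number 567. Cplx3 averaged 0.189 CPM per kb in CTR and 0.646 in SS, and it could not be told from Cplx4 in CTR-1 and CTR-2, where both were at 0. Both neuronal complexins were still among the more abundant transcripts of the SS punches, with 1.18% of genes above Cplx1 and 3.43% above Cplx2.

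Together, Cplx1 and Cplx2 summed to 1369 ± 209 CPM in CTR and 642 ± 52.0 in SS (SD, n = 4 each). The balance between them differed as well, which restates the gap between their 2 fold changes. The ratio was chosen with that contrast known, so its values are a description. The ratio of Cplx1 counts to Cplx2 counts, which needs no library size, was 1.51 in CTR-1, 1.30 in CTR-3, 1.24 in CTR-2 and 1.11 in CTR-5. It was 1.07 in SS-5, 0.977 in SS-2, 0.942 in SS-4 and 0.897 in SS-3. Thus Cplx1 had more counts than Cplx2 in all 4 CTR libraries and fewer in 3 of 4 SS libraries. The mean ratio was 1.29 ± 0.167 in CTR and 0.971 ± 0.0719 in SS (SD, n = 4 each).

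The 2 groups of ratios did not overlap, but the nearest values, 1.11 and 1.07, were those of CTR-5 and SS-5, the libraries with Xist. Without these libraries the difference of mean log2 ratios was -0.52, compared with -0.40 for all 8, and leaving out 1 library at a time gave -0.47 to -0.33. Corrected for GENCODE M21 exon length, the ratio was 2.50 to 3.40 in CTR and 2.02 to 2.40 in SS. With these lengths, Cplx1 was the more abundant of the pair in every library.

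**Figure D3:**
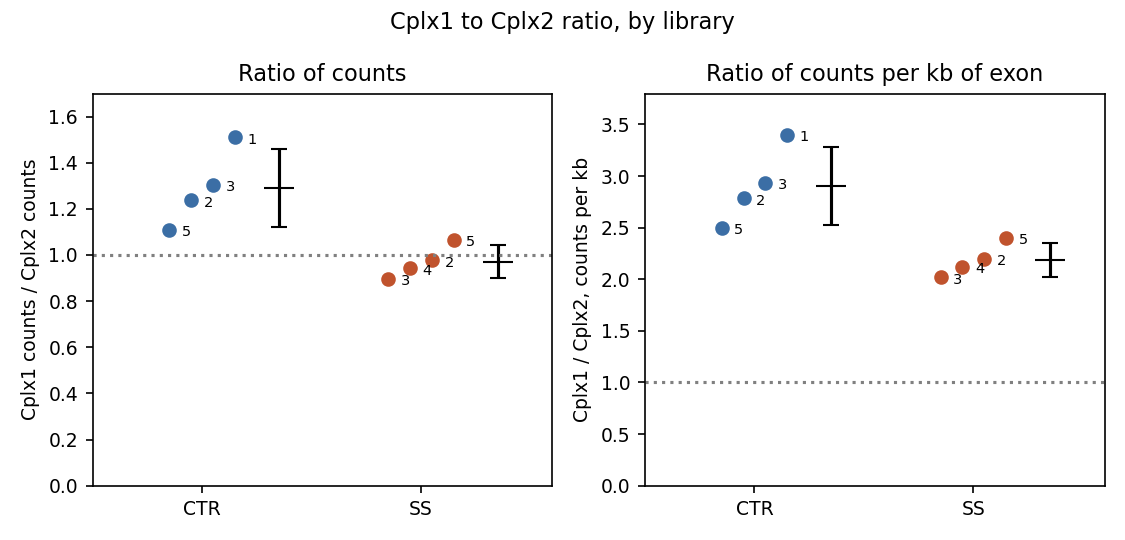
Ratio of Cplx1 to Cplx2 in each library, from counts (left) and from counts per kb of exon (right), on linear axes with the group mean ± SD (n = 4 per group) and a dotted line at 1. Ratios of counts run from 1.11 to 1.51 in CTR and from 0.897 to 1.07 in SS, and on the right all 8 libraries are above 2.

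The lower complexin levels were set against the neuronal RNA of each punch. Per 1000 counts of 10 pan-neuronal genes (such as Eno2, neuronal enolase), Cplx1 had 149 counts in CTR-5, 148 in CTR-1, 133 in CTR-2 and 108 in CTR-3. The SS values ran from 66.6 in SS-2 through 58.4 in SS-3 and 57.4 in SS-4 to 56.6 in SS-5. The means were 134 ± 18.9 in CTR and 59.7 ± 4.62 in SS (SD, n = 4 each). Cplx2 had 82.9 to 134 per 1000 in CTR and 53.1 to 68.1 in SS, with means of 106 ± 21.5 and 61.8 ± 6.53. Neither gene's groups overlapped on this scale. Both genes were chosen for lower SS values and the list's sums differed far less, so this is a description of that choice. The pan-neuronal list itself summed to 5405 to 6116 CPM in CTR and 5228 to 5337 CPM in SS, and its median log2 fold change was -0.15. Of its 10 genes 0 were called with edgeR, DESeq2 or voom, and 1 had an unadjusted p under 0.05 in edgeR.

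The partners of complexin at the vesicle showed smaller differences in most cases. Of 42 release machinery genes, all tested, 0 passed the threshold with edgeR, 13 had an unadjusted p under 0.05 (6.55% of all genes tested did) and 10 had groups that did not overlap (4.67% of all genes tested). Their median log2 fold change was -0.05, compared with 0.00 over all genes, and 26 were lower and 16 higher in SS. In most lists the gene with the highest mean CPM over the 8 libraries is named below, a scale that does not correct for length. DESeq2 called 4 of the 42 (Cadps2, Snap25, Sv2c and Unc13c, the last of them higher in SS), beside 0.419% of all genes it tested, and voom called Sv2c.

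The SNARE proteins, which complexin binds directly, had log2 fold changes below 0 in all 5 genes, with a median of -0.26. Snap25, the SNARE of the plasma membrane that supplies 2 helices of the complex, had both the highest CPM of them and the list's largest difference. Its mean was 2007 ± 75.4 CPM in CTR and 1559 ± 150 in SS (SD, n = 4 each). The log2 fold change was -0.36 (SE 0.08) with an adjusted p of 0.24 in edgeR. Its groups did not overlap, and DESeq2 called it.

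The 11 docking and priming factors were divided, with 5 lower and 6 higher in SS and a median log2 fold change of 0.02. Cadps2, a priming factor for vesicles that carry monoamines and peptides, had the largest difference. Its level was 110 CPM in CTR-5, 86.4 in CTR-1, 66.5 in CTR-2 and 52.6 in CTR-3, and 40.1 CPM in SS-3, 34.0 in SS-2, 26.3 in SS-5 and 23.0 in SS-4. All CTR libraries were above all SS libraries, and its log2 fold change was -1.35 (SE 0.23) with an adjusted p of 0.072 in edgeR.

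Among the 10 vesicle proteins, 8 were lower in SS and the median log2 fold change was -0.12. Sv2c, the SV2 form known from basal ganglia and dopamine neurons, had the largest difference of all 42 genes. Its level was 262 CPM in CTR-5, 221 in CTR-1 and 141 in both CTR-2 and CTR-3. In SS-3 it was 95.5 CPM, ahead of SS-2 (78.0), SS-4 (70.3) and SS-5 (53.0). The groups did not overlap, and its log2 fold change was -1.37 (SE 0.22) with an adjusted p of 0.053 in edgeR. Syp, synaptophysin, which had the highest CPM, averaged 1495 ± 220 CPM in CTR and 1288 ± 53.0 CPM in SS.

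The remaining lists lay near 0. The 7 calcium sensors had a median log2 fold change of 0.07. Syt1, the main sensor of fast release and the highest in CPM, averaged 815 ± 152 CPM in CTR and 641 ± 73.1 in SS (SD, n = 4 each), and Syt9 had the list's largest difference at 0.37 (SE 0.14). Of the 3 SNARE disassembly genes, Nsf, the ATPase that takes spent complexes apart, had the highest CPM at 968 ± 51.5 and 918 ± 78.8, and Napa differed most at -0.10. Of the 6 active zone scaffolds, Ppfia3, a liprin, had the highest CPM at 159 ± 10.8 and 168 ± 15.8, and Bsn (Bassoon) differed most at -0.48 (SE 0.25). Of the genes in these 3 lists, 0 were called by edgeR, DESeq2 or voom, and 3, all calcium sensors, had an unadjusted p under 0.05 in edgeR.

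Per 1000 counts of the 42 release machinery genes, Cplx1 had 48.6 ± 7.37 in CTR and 22.2 ± 1.21 in SS, and Cplx2 had 37.9 ± 5.95 and 23.0 ± 1.97 (SD, n = 4 each). Cplx1 ran from 39.2 to 57.2 in CTR and from 21.5 to 24.0 in SS, and Cplx2 from 30.1 to 44.5 and from 20.2 to 24.6. The ranges did not overlap for either gene, as their choice by lower SS values favours.

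**Figure D4:**
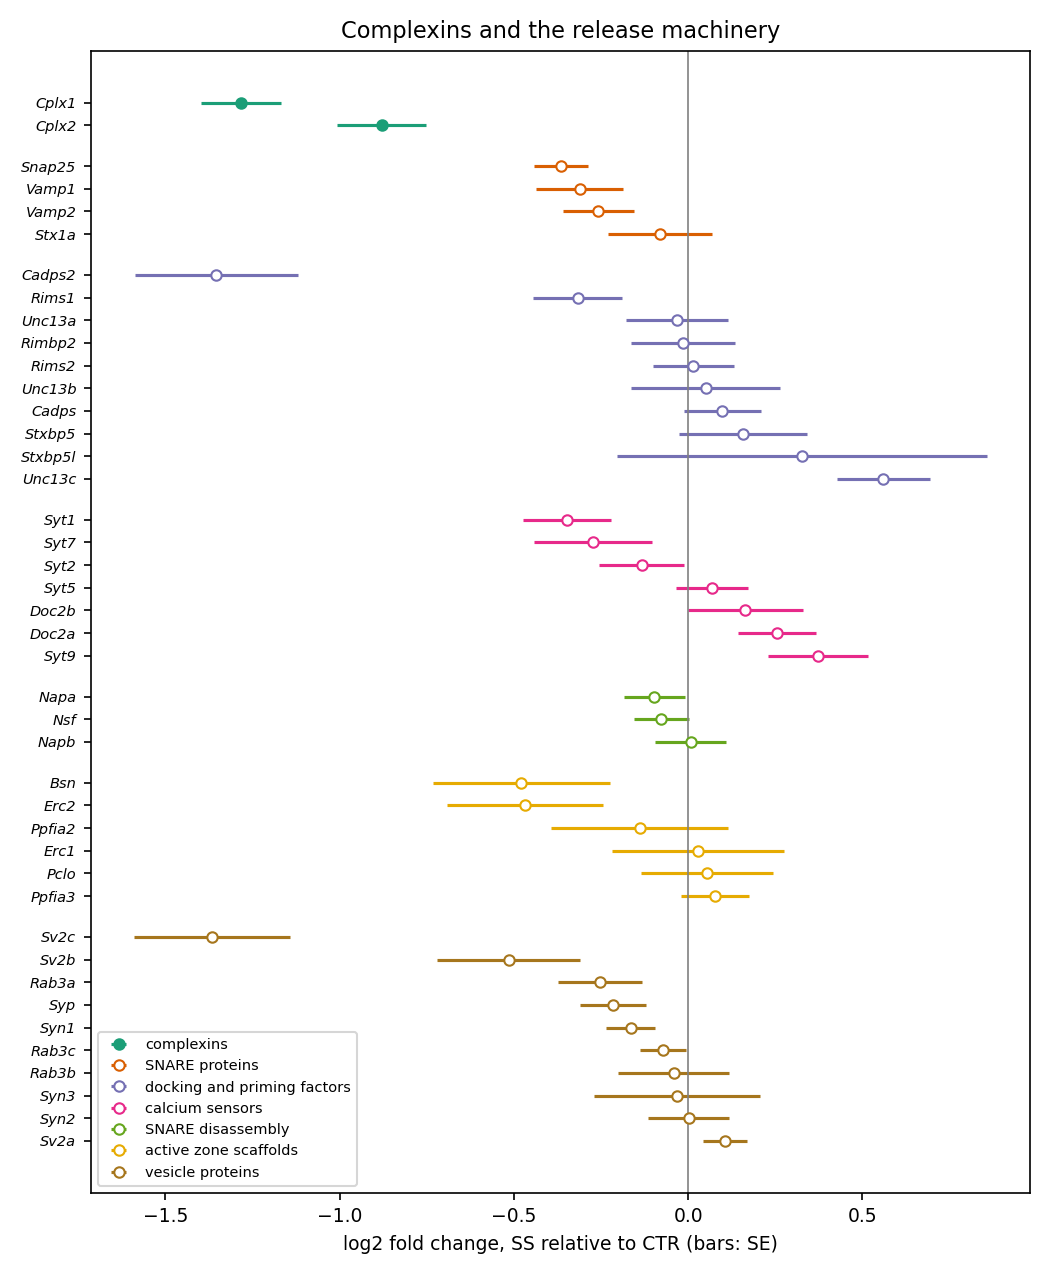
Log2 fold change of Cplx1, Cplx2 and the release machinery genes reported one by one, SS relative to CTR, with bars for the SE and colours for the lists. Filled points passed an adjusted p of 0.05 in edgeR, which only the 2 complexins did here, and the values below -1 are those of Sv2c (-1.37), Cadps2 (-1.35) and Cplx1 (-1.28).

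The markers of cell types in the punch moved with the complexins to different degrees. Of 12 markers of dopamine neurons, 11 had log2 fold changes below 0, and the median was -2.02. With edgeR 6 were called, all lower, beside 0.0847% of all genes tested. DESeq2 called 9, beside 0.419% of all genes it tested. Nr4a2 (log2 fold change 0.16, SE 0.19) and Lmx1b (-0.13, SE 0.17) were not called, and their groups overlapped. The list summed to 1228 to 2558 CPM in CTR and 420 to 558 CPM in SS. Th, the rate-limiting enzyme of dopamine synthesis, averaged 281 ± 147 CPM in CTR and 17.8 ± 5.20 CPM in SS, and Slc6a3, the dopamine transporter, 448 ± 186 and 6.19 ± 4.13 CPM (SD, n = 4 each). Ret, a GDNF receptor subunit and over all 8 libraries the highest of the list in CPM, averaged 354 ± 127 and 143 ± 18.7 CPM. None of the 12 was at 0 in every library.

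Within CTR, the 4 libraries had the same order for the dopamine neuron sum (2558 CPM in CTR-1, 2363 in CTR-5, 1554 in CTR-2 and 1228 in CTR-3) as for Cplx1. Cplx2 did not share that order. Within SS neither gene followed the sum, since SS-5 had the highest sum (558 CPM) and the lowest Cplx1 and Cplx2. The sum of 5 markers of cortical and hippocampal excitatory neurons, cells that do not belong to the VTA, was 498 CPM in CTR-5 and 269 in CTR-2, far above 72.9 in CTR-3 and 23.7 in CTR-1, and 26.6 to 91.4 CPM in SS. Slc17a7, the vesicular glutamate transporter of those cells and the highest of the list in CPM, averaged 179 ± 179 CPM in CTR and 40.2 ± 17.9 CPM in SS, and none was at 0 in every library. Of the 5, 0 were called with edgeR, DESeq2 or voom, and 2 had an unadjusted p under 0.05 in edgeR.

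CTR-5 and CTR-2, highest in this sum, were also the highest in Cplx2, and CTR-5, with the highest sum, had the lowest ratio of Cplx1 to Cplx2 in CTR, whereas CTR-1, with the lowest sum, had the highest ratio. The SS libraries went the other way, since SS-5, with the highest sum in SS (91.4 CPM), had the lowest Cplx2 and the highest ratio. Without CTR-2 and CTR-5 the log2 fold change was -1.25 for Cplx1 (SE 0.14), close to the value with them, and -0.70 for Cplx2 (SE 0.12), which was then not past the threshold. CTR-2 and CTR-5 were the CTR libraries highest in Cplx2, so leaving them out lowered its CTR mean whatever their marker sums. The part of either marker list in the complexin values was not tested.

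**Figure D5:**
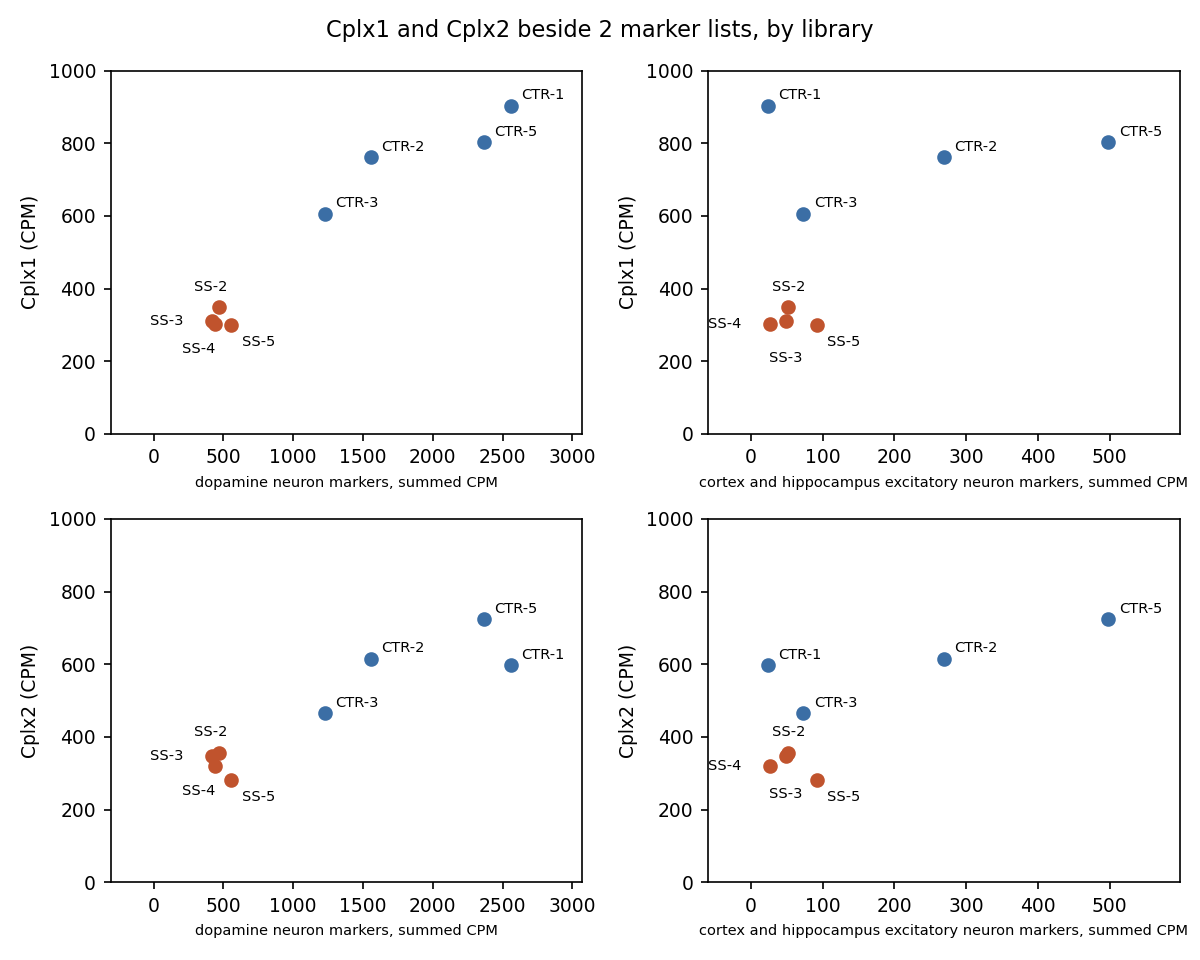
CPM of Cplx1 (top) and Cplx2 (bottom) in each library against the summed CPM of the dopamine neuron markers (left) and of the cortex and hippocampus excitatory neuron markers (right), on linear axes, with CTR in blue and SS in red. On the left the groups separate on both axes, and on the right CTR-1 has a sum of 23.7 CPM, lower than in any SS library, together with the highest Cplx1 value of 904 CPM.

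The other marker lists differed less. Hypothalamic and mammillary markers summed to 69.6 to 133 CPM in CTR and 131 to 168 CPM in SS, with Avp at 0 in all libraries, and the 6 that were tested all had log2 fold changes above 0. Pmch, the precursor of melanin-concentrating hormone, named after its values were seen, averaged 6.36 ± 7.40 CPM in CTR and 37.4 ± 8.68 in SS without overlap (log2 fold change 2.54, SE 0.74, adjusted p 0.61 in edgeR). It passed the threshold with edgeR's other quasi-likelihood estimate, without CTR-1 and CTR-2 and without CTR-2 and CTR-5 (adjusted p 0.022, 0.023 and 0.012 in edgeR). Both of these fits with libraries left out were chosen after seeing the data. Pmch did not pass with DESeq2 (adjusted p 0.42) or voom (0.19). In edgeR it did not pass with DESeq2's size factors (0.61), upper-quartile normalization (0.58) or no filter (0.52). The part of these markers in the complexin values was not tested. GABA neuron markers summed to 910 to 1084 CPM in CTR and 1015 to 1165 CPM in SS, and Slc17a6, the vesicular glutamate transporter of midbrain and diencephalic neurons, was at 334 to 445 and 427 to 453 CPM. The sums overlapped between the groups for astrocytes (753 to 947 and 782 to 886 CPM, led by Slc1a3), oligodendrocytes (18977 to 26695 and 21719 to 24137 CPM, led by Mbp), microglia (143 to 193 and 135 to 151 CPM, led by Csf1r) and endothelial cells (125 to 151 and 127 to 175 CPM, led by Flt1). In these lists 0 genes were called with edgeR, DESeq2 or voom, and 2, one each of the hypothalamic and microglial markers, had an unadjusted p under 0.05 in edgeR.

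The transcripts whose profile over the 8 libraries was most like that of each complexin were also found. Likeness was the root mean square difference of centred log2 CPM over the 8 libraries. It was taken for 10211 genes with a mean of at least 10 CPM, and all these profiles share the same libraries. Since Cplx1 and Cplx2 were lower in every SS library, genes chosen for likeness to them had to be lower in SS too, and their values are a description of that choice. Nearest to Cplx1 were Drd2, the dopamine D2 receptor (0.206), Aldh1a1, a retinoic acid synthesis enzyme of a subset of dopamine neurons (0.238), and Cplx2 (0.241). Nearest to Cplx2 were Nrgn, a calmodulin-binding postsynaptic protein of forebrain neurons (0.148), Pbx3, a homeobox transcription factor (0.152), and Etv5, an ETS transcription factor (0.169). Cplx1 was number 17 in that order.

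Drd2 and Aldh1a1 are also on the dopamine neuron marker list. Drd2 averaged 77.6 ± 21.1 CPM in CTR and 36.0 ± 7.95 in SS (SD, n = 4 each), and Aldh1a1 had a log2 fold change of -1.26 (SE 0.18). Nrgn, nearest to Cplx2, was at 379 CPM in CTR-5 and 364 in CTR-2, above 253 in CTR-3 and 248 in CTR-1, and at 156 to 182 CPM in SS. Its order in CTR was near that of Cplx2, as the choice by likeness favours. Pbx3 averaged 72.8 ± 6.74 CPM in CTR and 43.1 ± 1.49 CPM in SS, and Etv5 41.6 ± 6.38 and 21.4 ± 2.45 CPM.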

How the data were processed

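The data were RNA-sequencing counts of the VTA, 1 library per mouse with 4 mice in each group, grouped by their labels. The authors sequenced single-end reads of 75 bases (RNA integrity number above 7), used Cutadapt for trimming, STAR for alignment to mm10 and htseq-count with an Ensembl annotation, and deposited whole counts per gene without normalization. Strandedness is not given in the sources used here. p-values measure only the spread between these mice, and floors of 3 counts cover counting error alone.

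Groups were compared in R 4.3.3 with edgeR 4.0.16: filterByExpr (minimum count 10, minimum total count 15), TMM, glmQLFit and glmQLFTest without covariates, and Benjamini-Hochberg adjustment over 16538 genes at 0.05. The common biological coefficient of variation was 0.384. CPM is the count scaled to the TMM-normalized library size, and log2 CPM used a prior count of 2. Alternatives were DESeq2 1.42.0 (the study's tool, default options), voom of limma 3.58.1, other size factors, other count filters, edgeR's other quasi-likelihood estimate, libraries left out and the replicate number as a block. The fits without CTR-1 and CTR-2 and without CTR-2 and CTR-5 were chosen after seeing the data. The fits were also run on simulated data, in which each tool missed some changes and made some false calls. DESeq2 made the most false calls there.

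The members and lists were chosen with earlier results of these data known. Named genes are the complexins; in each release machinery list every gene past the threshold, the gene with the largest difference and the most abundant gene by CPM; the 3 genes nearest in profile to Cplx1 and to Cplx2; the most abundant gene of each marker list; Th, Slc6a3 and the sex-linked genes. Some genes of the lists are not reported here one by one. Other genes were named after their values were seen. Gene models and lengths were from GENCODE M21 (GRCm38), promoter windows from RefSeq (GRCm38.p6), and sequences were aligned with Biopython 1.88. The Ensembl annotation itself was not used here.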

Additional observations from a re-analysis of the deposited data

Results flagged for a closer look

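No complexin value stood apart from the rest of its group. Among the CPM values of the complexins and the release machinery and marker genes named here, 96 groups of 4 libraries were examined for a highest or lowest library whose gap to its neighbour took up more of the group's range than the 95% limit of Dixon's test allows. This was met in 8 groups, and chance alone gives about 1 in 20, or 4.8. The share of the range was 0.975 for Cadps in CTR-1, 0.857 for Napb in CTR-1 and 0.876 for Syp in CTR-1. It was 0.870 for Rimbp2 and 0.899 for Rims1 in CTR-5. In SS it was 0.865 for Rimbp2 in SS-4, 0.893 for Rab3c in SS-5 and 0.976 for Syt1 in SS-5.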

How the results depend on the processing

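Cplx1 kept its direction and its side of the threshold in all 19 alternatives (log2 fold change -1.39 to -1.16, adjusted p at most 0.023), with -1.39 to -1.20 when 1 library was left out. Cplx2 kept its direction in all 19 and its call in 10. Leaving out 1 library gave -0.99 to -0.78 (adjusted p 0.0060 to 0.20, called in 3 of 8). Cplx2 was also lost without CTR-5 and SS-5 (-0.71, adjusted p 0.15), without CTR-1 and CTR-2 (-0.86, 0.089) and without CTR-2 and CTR-5 (-0.70, 0.085). The cause was not tested, although these fits hold fewer libraries. DESeq2 and voom called Cplx2 (adjusted p 1.4e-07 and 0.017). Cplx3 was called in none of 18 alternatives (0.77 to 2.79) and was removed by the filter at a mean count of 50.

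The replicate number as a block gave -0.86 for Cplx2 (adjusted p 0.40) and 9 calls over all genes. The deviations of same-numbered libraries correlated at -0.0062, -0.0077 and 0.060, so the numbers are not taken as pairs, and not every library correlated best with its own number.

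Over all genes the 14 calls became 81 with DESeq2 (60 lower and 21 higher), 22 with no filter, 22 at a mean count of at least 50, 27 with edgeR's other estimate (25 lower and 2 higher), 9 without CTR-5 and SS-5 and 6 to 19 with 1 library left out. Of the release machinery genes, 0 called became 1 with DESeq2's size factors, 1 with upper-quartile normalization, 1 with voom, 4 with DESeq2, 2 with no filter, 2 at a mean count of at least 50, 2 with the other estimate and 0 to 1 with 1 library left out. The ratio of Cplx1 to Cplx2 (log2 difference -0.52 to -0.31) and the values per pan-neuronal count (-1.26 to -1.09 for Cplx1 and -0.87 to -0.56 for Cplx2) kept their direction in 11 alternatives each.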

Other observations

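A long non-coding gene, Gm48623, is annotated at the distal RefSeq start of Cplx2, and it was examined after its values were seen. Its level was 12.4 CPM in CTR-5, 9.20 in CTR-3, 6.20 in CTR-1 and 6.18 in CTR-2, and 9.11 CPM in SS-4, 7.10 in SS-2, 6.56 in SS-3 and 6.32 in SS-5. The groups overlapped, unlike those of Cplx2.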
